A study of Mus musculus with 9 samples.

Results

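The aryl hydrocarbon receptor pathway was followed in mouse ear epidermis through 6 genes, taken from the deposited gene count table by their symbols: Ahr, Arnt, Ahrr, Tiparp, Cyp1a1 and Cyp1b1. These are 6 of the 52550 genes in the table, and all 6 were tested in every comparison. Each of 3 groups of 3 libraries came from epidermal sheets of the ears of male wild type C57BL/6 mice (C57BL/6J in the methods), 8 weeks old, and all mice were gavaged for 10 days. VAS+H2O mice had Vaseline on the ears for 5 days and were gavaged with water. IMQ+H2O mice had imiquimod, a Toll-like receptor 7 agonist that gives psoriasis-like inflammation, on the ears for 5 days and the same water. IMQ+XYF mice had the same imiquimod and 200 µl of the Xiao-Yin-Fang (XYF) decoction at 23.3 mg/g. XYF was made up in water from extract powders of 5 herbs, Isatis tinctoria, Scutellaria baicalensis, Salvia miltiorrhiza, Sophora flavescens and Rheum officinale, and no group received XYF without imiquimod. The methods name sheets of 2 mice but do not say whether each library held that many, so the p-values measure the spread between libraries, which may be in part technical.

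The aryl hydrocarbon receptor, AHR, is a transcription factor that waits in the cytoplasm, bound to HSP90 and p23, until a small flat aromatic ligand enters the cell. Tryptophan metabolites, plant compounds and combustion products can serve as ligands. The loaded receptor moves to the nucleus, pairs with ARNT and binds the xenobiotic response element, whose core is GCGTG. Cyp1a1 and Cyp1b1, which encode enzymes that oxidize such ligands, are its classic targets, and Ahrr and Tiparp encode repressors that the receptor itself switches on. Keratinocytes carry the receptor, as do Langerhans cells and the γδ T cells of the mouse epidermis, and in keratinocytes it takes part in barrier formation. The comparisons ask how these genes stood under imiquimod and whether they stood differently when a plant decoction, which may supply ligands, was given.

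The promoters of the 4 target genes are shown because the receptor is known to act on these genes through the response element, whose core letters were searched in them. The RefSeq table (GRCm38.p6) held the 250 bases before the start site for 5 of the 6 genes. The table held no entry for Ahr. The windows are chr9:57697363-57697612 on the plus strand for Cyp1a1, chr17:79715062-79715311 on the minus strand for Cyp1b1, chr13:74292332-74292581 on the minus strand for Ahrr and chr3:65528197-65528446 on the plus strand for Tiparp. Each is printed 5′ to 3′ toward the start site, and capitals mark GCGTG or its reverse complement CACGC.
Cyp1a1: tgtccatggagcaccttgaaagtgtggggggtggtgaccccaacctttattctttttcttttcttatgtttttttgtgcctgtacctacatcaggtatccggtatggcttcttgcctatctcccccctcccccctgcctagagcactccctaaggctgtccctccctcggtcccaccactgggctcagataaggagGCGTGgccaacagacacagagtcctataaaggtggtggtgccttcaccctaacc
Cyp1b1: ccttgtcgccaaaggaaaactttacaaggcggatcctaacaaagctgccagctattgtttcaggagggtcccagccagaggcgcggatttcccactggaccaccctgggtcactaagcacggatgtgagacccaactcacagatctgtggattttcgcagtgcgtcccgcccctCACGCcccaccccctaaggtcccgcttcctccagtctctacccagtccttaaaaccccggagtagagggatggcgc
Ahrr: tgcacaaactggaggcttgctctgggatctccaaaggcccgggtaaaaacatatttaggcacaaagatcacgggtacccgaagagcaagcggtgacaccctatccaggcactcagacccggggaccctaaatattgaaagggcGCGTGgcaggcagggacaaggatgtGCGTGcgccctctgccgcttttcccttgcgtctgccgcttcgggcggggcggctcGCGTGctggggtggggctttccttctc
Tiparp: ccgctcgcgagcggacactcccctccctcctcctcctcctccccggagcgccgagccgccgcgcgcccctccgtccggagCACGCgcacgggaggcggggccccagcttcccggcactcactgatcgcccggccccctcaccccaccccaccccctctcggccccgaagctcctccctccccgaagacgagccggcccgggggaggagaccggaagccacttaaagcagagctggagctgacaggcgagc
GCGTG, searched on both strands, stood in all 4 of these windows and in that of Arnt (chr3:95434140-95434389, plus strand). The site of Cyp1a1 began 54 bases before the start site, that of Arnt 29 bases, and those of Cyp1b1 and Tiparp, both on the opposite strand, 76 and 170 bases. Ahrr held 3 copies, at 107, 82 and 27 bases. Of 32851 promoter windows of the same length, 28.16% held at least 1 copy and 2.773% held 3 or more. The windows of these genes were richer in G and C (53.6% to 75.2%) than the median window (52.4%), and a match to 5 letters is a description and not a shown binding site. Only these 250 bases were searched, so response elements farther upstream are not covered, and the marked letters need not be those the receptor uses.

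Library totals were 30298275 to 64771160 gene counts. Keratinocyte markers were present in all libraries, with a summed level of 41710 to 63750 CPM (counts scaled to the same library total, with TMM normalization) and none of the 8 at 0, and the Langerhans cell marker Cd207 lay between 21.2 and 34.3 CPM. Of the keratinocyte sum, Krt10 alone made up 23650 to 37950 CPM. VAS+H2O library 2 stood apart with 745.1 CPM of dermal fibroblast markers, against 108.3 and 146.7 in libraries 1 and 3 of its group, 71.78 to 79.21 in IMQ+H2O and 115 to 264.3 in IMQ+XYF. None of the 9 fibroblast markers was at 0. IMQ+H2O library 3 stood apart too, with 2190 CPM of neutrophil markers against 282 and 363.7 in libraries 1 and 2 of its group. Its counts differed from theirs by a chi-square per gene of 57.05 and 54.04, against 18.54 between those libraries and 22.08 to 33.09 within the other groups. Values below are CPM in the order of replicate numbers, groups are in the order VAS+H2O, IMQ+H2O, IMQ+XYF, and comparisons between genes use CPM per kilobase of exon.

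Ahr, the receptor (ENSMUSG00000019256, GRCm38 chr12:35497974-35535038, minus strand), was lower in both imiquimod groups than in VAS+H2O. Its level was 93.2, 94.5 and 106 CPM in VAS+H2O, 67.3, 61.8 and 54.8 CPM in IMQ+H2O, and 63.3, 69.9 and 61.8 CPM in IMQ+XYF. Every VAS+H2O library lay above all 6 imiquimod libraries, while the IMQ+H2O and IMQ+XYF libraries overlapped. The means were 97.9 ± 7.03, 61.3 ± 6.30 and 64.97 ± 4.32 CPM (SD, n = 3 each). In the edgeR quasi-likelihood test, Ahr was 0.620 times its VAS+H2O level in IMQ+H2O, a log2 fold change of -0.69 (SE 0.10, adjusted p = 0.00937). It was 0.664 times that level in IMQ+XYF (log2 fold change -0.59, SE 0.08, edgeR adjusted p = 0.00343). Without the VAS+H2O library rich in fibroblast markers, the log2 fold changes were -0.71 and -0.62 (edgeR adjusted p = 0.0355 and 0.0114). IMQ+H2O library 3, rich in neutrophil markers, had the lowest Ahr of the 9, and without it the log2 fold change in IMQ+H2O was -0.61 (edgeR adjusted p = 0.0199). Between IMQ+XYF and IMQ+H2O the log2 fold change of Ahr was 0.09, with a 95% interval of 0.907 to 1.25 times (edgeR adjusted p = 0.9999), and without that library it was 0.0090. With the fibroblast marker score as a covariate, the log2 fold change in IMQ+H2O was -0.72 and no longer passed (edgeR adjusted p = 0.0813), and that in IMQ+XYF was -0.59 and passed (edgeR adjusted p = 0.00735). The score, a mean log2 CPM, was 2.92, 5.57 and 3.38 in VAS+H2O and 2.30, 2.42 and 2.66 in IMQ+H2O. With no overlap in the score, the IMQ+H2O fit can hardly separate it from treatment. Calls over all genes fell there from 3986 to 117.

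Some markers of keratinocytes and of other cells differed along with Ahr. Of the 8 keratinocyte markers, 3 were higher in IMQ+H2O than in VAS+H2O (Krt1, Dsg3 and Krt14, log2 fold changes 1.45, 1.32 and 0.72). Krt15 (-2.10) and Col17a1 (-0.42) were lower, and 3 did not pass. Of all genes, 12.7% were higher there and 9.41% lower. In IMQ+XYF against VAS+H2O, 3 of the 8 were higher and 2 lower (16.7% and 12% of all genes). Of the 8 markers of epidermal γδ T cells, 7 were tested, and 4 of these (Cd3d, Cd3e, Cd3g and Cd247) were lower in both imiquimod groups than in VAS+H2O. In IMQ+H2O, Trdc (log2 fold change -0.53, edgeR adjusted p = 0.0518), Il2rb (-0.33) and Fcer1g (0.46) did not pass. Trdc had 20.06, 22.22 and 17.5 CPM in VAS+H2O, 11.65, 15.32 and 14.89 in IMQ+H2O, and 14.58, 12.49 and 9.434 in IMQ+XYF. The summed level of all 8 markers was 64.65 to 74.9 CPM in VAS+H2O, 36.91 to 54.02 in IMQ+H2O and 34.12 to 55.79 in IMQ+XYF, with Klre1 at 0 in 8 of the 9 libraries. Neutrophil markers summed to 20.61 to 25.18 CPM in VAS+H2O, 282 to 2190 in IMQ+H2O and 594.6 to 922.1 in IMQ+XYF. Of these markers, 3 of the 4 tested were higher in IMQ+H2O and 4 of the 5 tested in IMQ+XYF. The sums of the imiquimod groups were mostly S100a8, S100a9 and Cxcr2, the 3 called in IMQ+H2O, where Mmp9 had -0.13 and did not pass. IMQ+XYF library 2, with 922.1 CPM in sum, had 410.7 of S100a8 and 445.2 of S100a9, but 1.33 of Csf3r and 0 of Mmp8. IMQ+H2O library 1, with 282 CPM in sum, had 0.17 of Csf3r and 0 of Mmp8, Retnlg and Ly6g. The neutrophil sums therefore do not speak for all markers of the list. Ly6g, the defining marker, was at 0 in 6 libraries. Langerhans cell markers summed to 665.5 to 777.3, 623.4 to 845.5 and 647.7 to 713.4 CPM in the same order of groups, with Ccr6 at 0 throughout. Macrophage and monocyte markers summed to 31.98 to 42.46, 31.13 to 52.19 and 28.81 to 43.63 CPM. Of the 5 tested, 1 was higher in IMQ+H2O (Ly6c2) and 0 in IMQ+XYF. Over the 9 libraries, the mean log2 CPM of neutrophil markers and of these markers ran most against Ahr (r = -0.90 and -0.86). The libraries share groups, so these r values are a description. Cartilage markers, 8 of 9 of which were in the table, summed to 279.5 to 629.6 CPM in VAS+H2O, 53.97 to 106.4 in IMQ+H2O and 177 to 293.5 in IMQ+XYF. Against VAS+H2O, all 6 tested fell in IMQ+H2O and none of the 6 tested passed in IMQ+XYF, with Matn1 at 0 in all libraries and Matn3 in 5. Sebaceous markers summed to 2733 to 5069, 1584 to 2108 and 1760 to 2174 CPM, none of the 7 was at 0, and 2 of the 7 tested (Scd1 and Scd3) were lower in both imiquimod groups. Scd1 alone made up most of these sums, with 2653 to 4897, 1446 to 1918 and 1637 to 2018 CPM. In IMQ+H2O, Fads6, Awat2, Awat1 and Elovl3 went the other way (log2 fold changes 0.71, 0.52, 0.44 and 0.18) and Mc5r had -1.26, and none of these passed. The sums therefore do not speak for the list as a set. The part of these cells in the Ahr result was not tested, and in a bulk sample fewer cells of a type and less RNA per cell cannot be told apart.

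Arnt, the partner with which AHR binds DNA (ENSMUSG00000015522, GRCm38 chr3:95434388-95497240, plus strand), was somewhat lower in both imiquimod groups. It had 57.9, 60.0 and 64.8 CPM in VAS+H2O, 50.6, 51.4 and 53.9 CPM in IMQ+H2O, and 49.7, 50.1 and 51.7 CPM in IMQ+XYF. All VAS+H2O libraries again lay above all imiquimod libraries, but the distance was small. The group means were 60.9 ± 3.56, 52.0 ± 1.72 and 50.5 ± 1.05 CPM (SD, n = 3). IMQ+XYF passed against VAS+H2O, with a log2 fold change of -0.27 (SE 0.07, edgeR adjusted p = 0.0280), and IMQ+H2O did not (-0.24, SE 0.08, edgeR adjusted p = 0.0708). The call for IMQ+XYF rested on the complete set of libraries. It was lost without VAS+H2O library 2 or 3 and without any single IMQ+XYF library, with edgeR adjusted p from 0.0435 to 0.117 over the 6 fits that leave out 1 library.

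**Figure D1:**
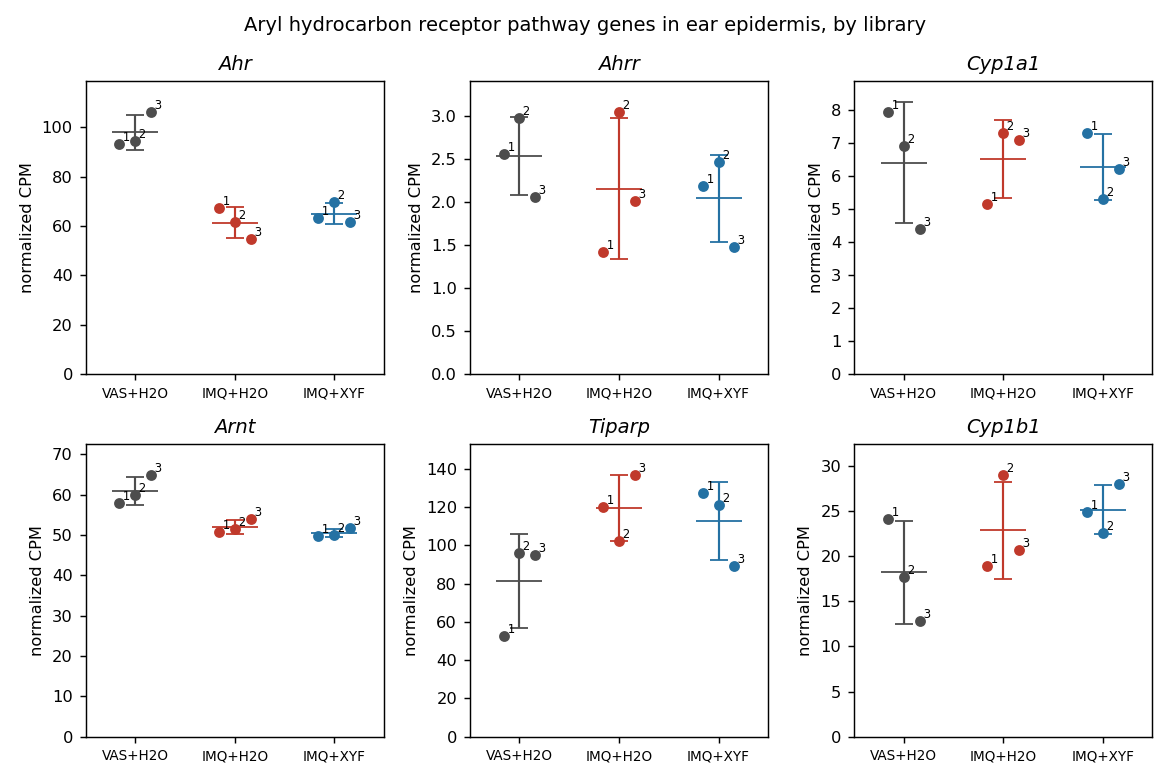
Level of each gene in normalized CPM (vertical axis, from 0) in the 9 libraries by group (horizontal axis). Points are libraries with their replicate number, the long bar is the group mean and the error bar its SD. The 3 VAS+H2O libraries lie above all others for Ahr (93.2 to 106 CPM) and Arnt (57.9 to 64.8 CPM), and the groups overlap for Ahrr, Cyp1a1 and Cyp1b1.

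None of the 4 target genes passed the test in any of the 3 comparisons. Cyp1a1 (ENSMUSG00000032315, GRCm38 chr9:57687928-57703824, plus strand), the cytochrome P450 usually read as the gauge of AHR activity, had 7.93, 6.92 and 4.39 CPM in VAS+H2O, 5.15, 7.31 and 7.08 in IMQ+H2O, and 7.32, 5.30 and 6.21 in IMQ+XYF. These values rest on 149 to 466 counts per library, and the 3 groups overlapped throughout. The means were 6.41 ± 1.83, 6.51 ± 1.19 and 6.28 ± 1.01 CPM (SD, n = 3). Against VAS+H2O the log2 fold change was 0.0084 in IMQ+H2O (SE 0.26, edgeR adjusted p = 0.985) and -0.03 in IMQ+XYF (SE 0.25, edgeR adjusted p = 0.942).

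With XYF added to imiquimod, the log2 fold change of Cyp1a1 was -0.05 (SE 0.20, edgeR adjusted p = 0.9999). Its 95% interval ran from 0.703 to 1.34 times the IMQ+H2O level, and changes within that range cannot be told from none in these libraries. Leaving out 1 library at a time moved the value between -0.19 and 0.06.

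Cyp1b1 (ENSMUSG00000024087, GRCm38 chr17:79701537-79715061, minus strand), the related P450 of extrahepatic tissues, was listed at 24.2, 17.7 and 12.8 CPM in VAS+H2O, 18.9, 29.0 and 20.7 in IMQ+H2O, and 24.9, 22.6 and 28.0 in IMQ+XYF. VAS+H2O library 1 lay within the imiquimod range and libraries 2 and 3 below it. The means were 18.2 ± 5.70, 22.9 ± 5.37 and 25.2 ± 2.70 CPM (SD, n = 3), and none of the differences passed. The log2 fold change was 0.31 in IMQ+H2O and 0.46 in IMQ+XYF against VAS+H2O (edgeR adjusted p = 0.422 and 0.170), and 0.14 for IMQ+XYF against IMQ+H2O, with a 95% interval of 0.823 to 1.48 times. Only the fit without VAS+H2O library 1 passed, for IMQ+XYF against VAS+H2O, with 0.72 (edgeR adjusted p = 0.0397). In each group, the library with the lowest Cyp1a1 was also the lowest in Cyp1b1.

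Ahrr, the repressor that competes with AHR for ARNT (ENSMUSG00000021575, GRCm38 chr13:74211118-74292331, minus strand), was the scarcest of the 6 genes. Its values were 2.56, 2.97 and 2.07 CPM in VAS+H2O, 1.42, 3.04 and 2.01 in IMQ+H2O, and 2.18, 2.47 and 1.48 in IMQ+XYF, from 41 to 139 counts per library. The groups overlapped, and IMQ+H2O held both the lowest and the highest of the 9 libraries. Means of 2.53 ± 0.456, 2.16 ± 0.823 and 2.04 ± 0.507 CPM (SD, n = 3) gave log2 fold changes of -0.24 and -0.31 against VAS+H2O (edgeR adjusted p = 0.619 and 0.412). The value for IMQ+XYF against IMQ+H2O was -0.08, with the widest 95% interval of the 6 genes, 0.546 to 1.65 times.

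Tiparp (ENSMUSG00000034640, GRCm38 chr3:65528410-65555518, plus strand) encodes the ADP-ribosyltransferase that restrains AHR. It had 52.9, 96.0 and 94.8 CPM in VAS+H2O, 120, 102 and 137 CPM in IMQ+H2O, and 127, 121 and 89.4 CPM in IMQ+XYF. All IMQ+H2O libraries lay above the VAS+H2O libraries, of which library 1 was far below the other two, whereas IMQ+XYF library 3 fell within the VAS+H2O range. The means of 81.2 ± 24.6, 120 ± 17.2 and 113 ± 20.3 CPM (SD, n = 3) differed by a log2 fold change of 0.54 for IMQ+H2O (SE 0.24, edgeR adjusted p = 0.145) and 0.47 for IMQ+XYF (SE 0.25, edgeR adjusted p = 0.198) against VAS+H2O, and neither passed. Without VAS+H2O library 1 the values were 0.31 and 0.24 (edgeR adjusted p = 0.191 and 0.328). IMQ+H2O library 3 had the highest Tiparp of the 9, and without it the value in IMQ+H2O was 0.44 (edgeR adjusted p = 0.320). Between IMQ+XYF and IMQ+H2O the log2 fold change was -0.08.

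Of the 6 genes, 1 passed for IMQ+H2O against VAS+H2O (Ahr, lower), where 22.1% of the 18009 genes tested passed, 12.7% higher and 9.41% lower. In IMQ+XYF against VAS+H2O, 2 passed (Ahr and Arnt, both lower), beside 28.7% of 17954 genes, 16.7% higher and 12% lower. Between IMQ+XYF and IMQ+H2O 0 of 6 passed by edgeR, 0 at an unadjusted p under 0.05 and 0 by DESeq2. By edgeR only 0.0281% of the 17793 genes passed there, 0.0281% higher and 0% lower. Of the 17793 genes, 966 had an unadjusted edgeR p under 0.05, and DESeq2 called 165 genes. None of the 6 reached a log2 fold change of 1 with an adjusted p of at most 0.05, which 7.68%, 7.64% and 0.0281% of genes did in the same order of comparisons. Libraries of both groups did not overlap for 3 of the 6 in IMQ+H2O against VAS+H2O (45% of all genes), for 2 in IMQ+XYF against VAS+H2O (47.5%) and for 0 in IMQ+XYF against IMQ+H2O (10.7%). The shares among the 6 genes were thus near those of all genes in the comparisons with VAS+H2O, and these 2 comparisons share the VAS+H2O libraries. The median log2 fold change of the 6 was -0.12, -0.15 and -0.04, against -0.03, -0.04 and 0.00058 over all genes tested. In size, the change of Ahr in IMQ+H2O was larger than that of 75.2% of the genes tested, and that of Arnt larger than that of 37.5%.

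**Figure D2:**
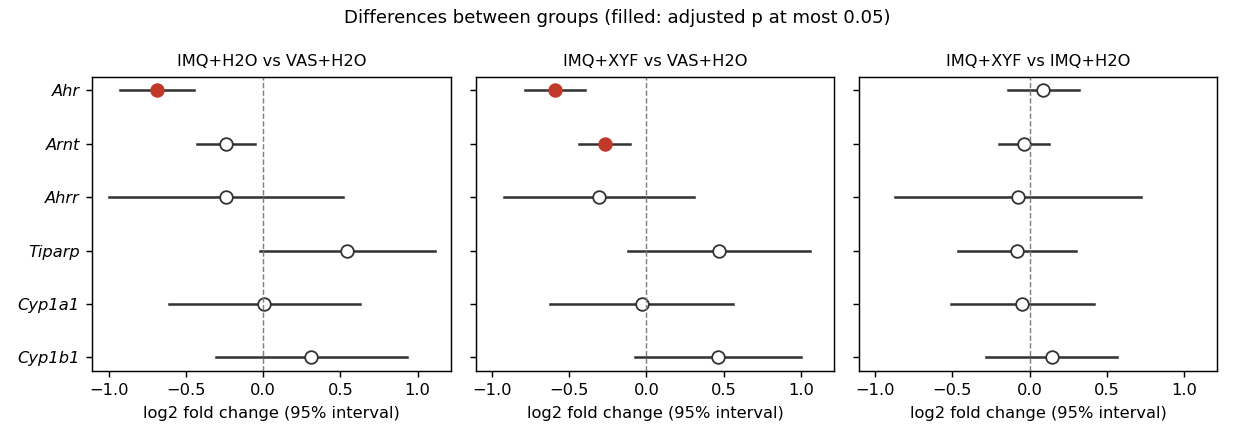
Log2 fold change (horizontal axis) with its 95% interval from edgeR for each gene in the 3 comparisons, each on its own 6 libraries. Filled points passed an adjusted p of 0.05: Ahr in both comparisons with VAS+H2O (-0.69 and -0.59) and Arnt in that of IMQ+XYF (-0.27). All 6 intervals between IMQ+XYF and IMQ+H2O hold 0.

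Per kilobase of exon, the order of the 6 genes was the same in all groups: Tiparp, Ahr, Arnt, Cyp1b1, Cyp1a1 and Ahrr. In CPM per kilobase and in the group order VAS+H2O, IMQ+H2O, IMQ+XYF, Tiparp averaged 18.6, 27.4 and 25.8, and Ahr 15.9, 9.95 and 10.5. Arnt had 7.61, 6.49 and 6.30, and Cyp1b1 3.12, 3.92 and 4.31. Cyp1a1 had 2.30, 2.34 and 2.25, and Ahrr 0.268, 0.229 and 0.217 CPM per kilobase. In VAS+H2O the libraries of Tiparp (12.1 to 22.0) and Ahr (15.1 to 17.2) overlapped, as did those of Cyp1b1 and Cyp1a1, so their order there does not exceed the spread. Under imiquimod, with or without XYF, no neighbours in the order overlapped.

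Because each library holds all 6 transcripts, their ratios do not depend on the scaling between libraries. The 2 ratios given here were chosen after the levels had been seen. With 3 libraries per group, an exact permutation test can give no p below 0.1, so no ratio could pass. The exact permutation test gave p = 0.1 for both ratios in both comparisons with VAS+H2O (adjusted p = 0.15 over 6 tests). For IMQ+XYF against IMQ+H2O, the exact permutation test gave p = 0.5 for both ratios (adjusted p = 0.5). The separation of groups described below is therefore a description. Ahr stood to Arnt, per kilobase, at 2.09, 2.05 and 2.12 in VAS+H2O, 1.73, 1.56 and 1.32 in IMQ+H2O, and 1.65, 1.81 and 1.55 in IMQ+XYF. The ratio was lower in all 6 imiquimod libraries than in any VAS+H2O library, and the VAS+H2O ratios were nearly constant. Tiparp stood to Ahr at 0.802, 1.44 and 1.26 in VAS+H2O, 2.52, 2.34 and 3.53 in IMQ+H2O, and 2.84, 2.45 and 2.05 in IMQ+XYF. IMQ+H2O library 3 held the lowest Ahr to Arnt and the highest Tiparp to Ahr ratio of the 9. Here too no imiquimod library reached into the VAS+H2O range, and the IMQ+XYF and IMQ+H2O ranges overlapped.

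**Figure D3:**
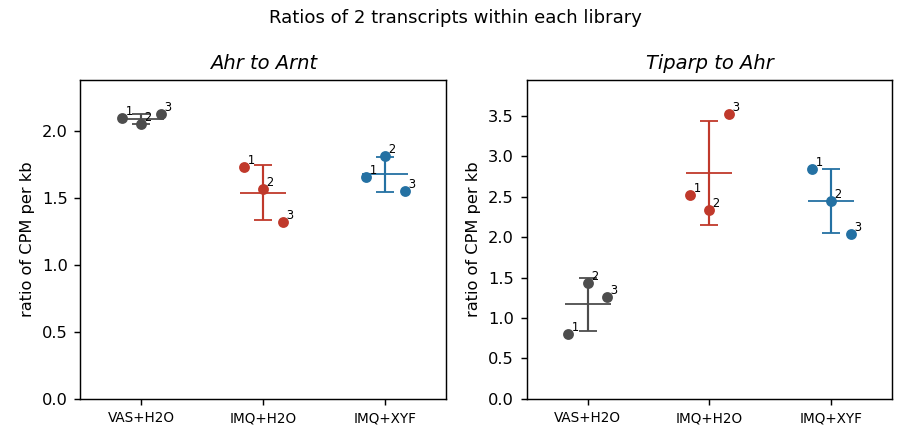
Ratio of Ahr to Arnt (left) and of Tiparp to Ahr (right), each in CPM per kilobase of exon (vertical axes, from 0), in the 9 libraries by group. Points carry the replicate number, long bars are means and error bars SDs. Ahr to Arnt is 2.05 to 2.12 in VAS+H2O and at most 1.81 elsewhere, and Tiparp to Ahr is at most 1.44 in VAS+H2O and at least 2.05 elsewhere.

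Beyond these 6, 47 other genes of the pathway were counted in 5 lists, and 36 had enough counts to be tested. The lists were chosen with earlier results of these data known, so their counts are a description. For IMQ+H2O against VAS+H2O, 11 rose (12.7% of all genes), 4 fell (9.41%) and 21 did not pass, with a median log2 fold change of 0.29 against -0.03 over all genes. Without VAS+H2O library 2 the number passing was 9 instead of 15, as all calls went from 3986 to 1446, and without IMQ+H2O library 3 it was 14. For IMQ+XYF against VAS+H2O, 14 rose (16.7% of all genes) and 4 fell (12%), with a median of 0.19 against -0.04 over all genes. Without VAS+H2O library 2, 12 passed, as all calls went from 5152 to 3849. With XYF set against imiquimod alone, 0 of the 36 passed by edgeR (0.0281% of all genes) and 0 by DESeq2 (165 of all genes), with a median of 0.0042.

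Among chaperones that hold the receptor ready, Hsp90aa1 and Ptges3 rose under imiquimod. Of 10 genes of the receptor complex and its cofactors, 2 rose and 2 fell in IMQ+H2O (12.7% and 9.41% of all genes). Hsp90aa1, an HSP90 isoform, rose from 113 ± 20.7 to 226 ± 55.1 CPM (log2 fold change 0.99, edgeR adjusted p = 0.0192), and Ptges3, which encodes the co-chaperone p23, from 63.1 ± 5.39 to 112 ± 17.0 CPM (0.82, edgeR adjusted p = 0.0101). Arnt2, the paralog of Arnt, fell from 10.3, 9.17 and 8.03 CPM in VAS+H2O to 3.77, 5.05 and 4.24 CPM in IMQ+H2O (-1.09, edgeR adjusted p = 0.0118), and the coactivator Ncoa1 had -0.36 (edgeR adjusted p = 0.0490). In IMQ+XYF Hsp90aa1, Ptges3 and Arnt2 passed against VAS+H2O in the same direction, and Hsp90ab1 (0.36), Ncoa7 (0.55) and Ncoa2 (-0.35) passed too (edgeR adjusted p = 0.0380, 0.0434 and 0.0211).

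Of 11 enzymes of tryptophan metabolism, a source of AHR ligands, 5 were tested, while Ido1, Ido2, Tdo2, Kmo, Aadat and Tph1 had too few counts. Kyat1 and Kyat3, kynurenine aminotransferases, averaged 33.0, 39.5 and 37.4 CPM and 11.1, 10.8 and 12.4 CPM in the group order, and neither passed. Il4i1, which encodes an amino acid oxidase whose products activate AHR, had 7, 5 and 6 counts in VAS+H2O, 17, 33 and 50 in IMQ+H2O, and 58, 46 and 27 in IMQ+XYF. It rose in both imiquimod groups, by 2.44 and 2.69 on the log2 scale (edgeR adjusted p = 0.0118 and 0.00350), from counts that are low in every group. Afmid, a formamidase of the kynurenine route, had the lowest log2 fold change of the 5 tested, -0.57 in IMQ+H2O (edgeR adjusted p = 0.196).

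Of 10 further targets in metabolism, 9 were tested, and 4 rose and 2 fell in IMQ+H2O (12.7% and 9.41% of all genes). Nqo1, a quinone reductase that answers to AHR and to NRF2, had 11.1, 9.38 and 11.5 CPM in VAS+H2O, 50.2, 41.3 and 40.6 in IMQ+H2O, and 42.2, 40.5 and 50.5 in IMQ+XYF. All imiquimod libraries lay far above the VAS+H2O libraries, and the log2 fold change was 2.03 in IMQ+H2O (SE 0.13, edgeR adjusted p = 0.00194) and 2.06 in IMQ+XYF (SE 0.13, edgeR adjusted p = 0.000428). Nfe2l2, which encodes NRF2, rose by 0.91, Slc7a5, an amino acid transporter that carries tryptophan, by 1.27, and the glutathione transferase Gsta1 by 1.69 (edgeR adjusted p = 0.00688, 0.00636 and 0.0132 in IMQ+H2O). The P450 gene Cyp2s1 had -0.76 and the glucuronosyltransferase Ugt1a6a -0.49 (edgeR adjusted p = 0.0190 and 0.0234). Gsta1 and Ugt1a6a have near-identical neighbours, Gsta2 and Ugt1a6b, and their counts are uncertain. In IMQ+H2O these neighbours went the other way, Gsta2 with -0.47 and Ugt1a6b with 0.34, and neither passed (edgeR adjusted p = 0.202 and 0.560). Aldh3a1, an aldehyde dehydrogenase, had 0.40 (edgeR adjusted p = 0.149), and Cyp1a2 had 0 counts in all 9 libraries. Between IMQ+XYF and IMQ+H2O the 95% interval of Nqo1 was 0.826 to 1.24 times.

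The fourth list held 8 genes linked to the receptor in keratinocytes, with cornified envelope genes beside the cytokine gene Il24, the growth factor gene Ereg and the transcription factor gene Ovol1. Of these 8, 3 rose in IMQ+H2O (12.7% of all genes), namely Ivl (involucrin, 1.10, edgeR adjusted p = 0.00743), Serpinb2 (0.93, edgeR adjusted p = 0.0274) and Il24. Il24 had 0 counts in VAS+H2O and 20.5 ± 16.0 CPM in IMQ+H2O, at least 255-fold above the floor of 3 counts per library, and 15.1 ± 8.71 CPM in IMQ+XYF, at least 189-fold above it. The list's median of 0.69 is the same with Il24 at that bound, since Il24 is its highest gene. Flg (filaggrin) had 505 ± 66.4, 570 ± 429 and 319 ± 89.4 CPM in the same group order (SD, n = 3), and passed for IMQ+XYF against VAS+H2O (-0.66, edgeR adjusted p = 0.0487) while Hrnr (hornerin) passed in the other direction (0.65, edgeR adjusted p = 0.0188). Lor (loricrin) had -0.39 in IMQ+H2O (edgeR adjusted p = 0.484).

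ARNT also pairs with other proteins. Of 8 of its other partners, 4 were tested in IMQ+H2O and 1 rose (12.7% of all genes). This was Hif1a, the oxygen-regulated subunit, with 93.1, 103 and 122 CPM in VAS+H2O, 194, 219 and 331 in IMQ+H2O, and 264, 242 and 242 in IMQ+XYF. Its groups did not overlap with VAS+H2O, and the log2 fold change was 1.21 in IMQ+H2O and 1.23 in IMQ+XYF (edgeR adjusted p = 0.0137 and 0.000975). Sim2 had the lowest log2 fold change of the 4 tested, -0.69 in IMQ+H2O (edgeR adjusted p = 0.566).

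**Figure D4:**
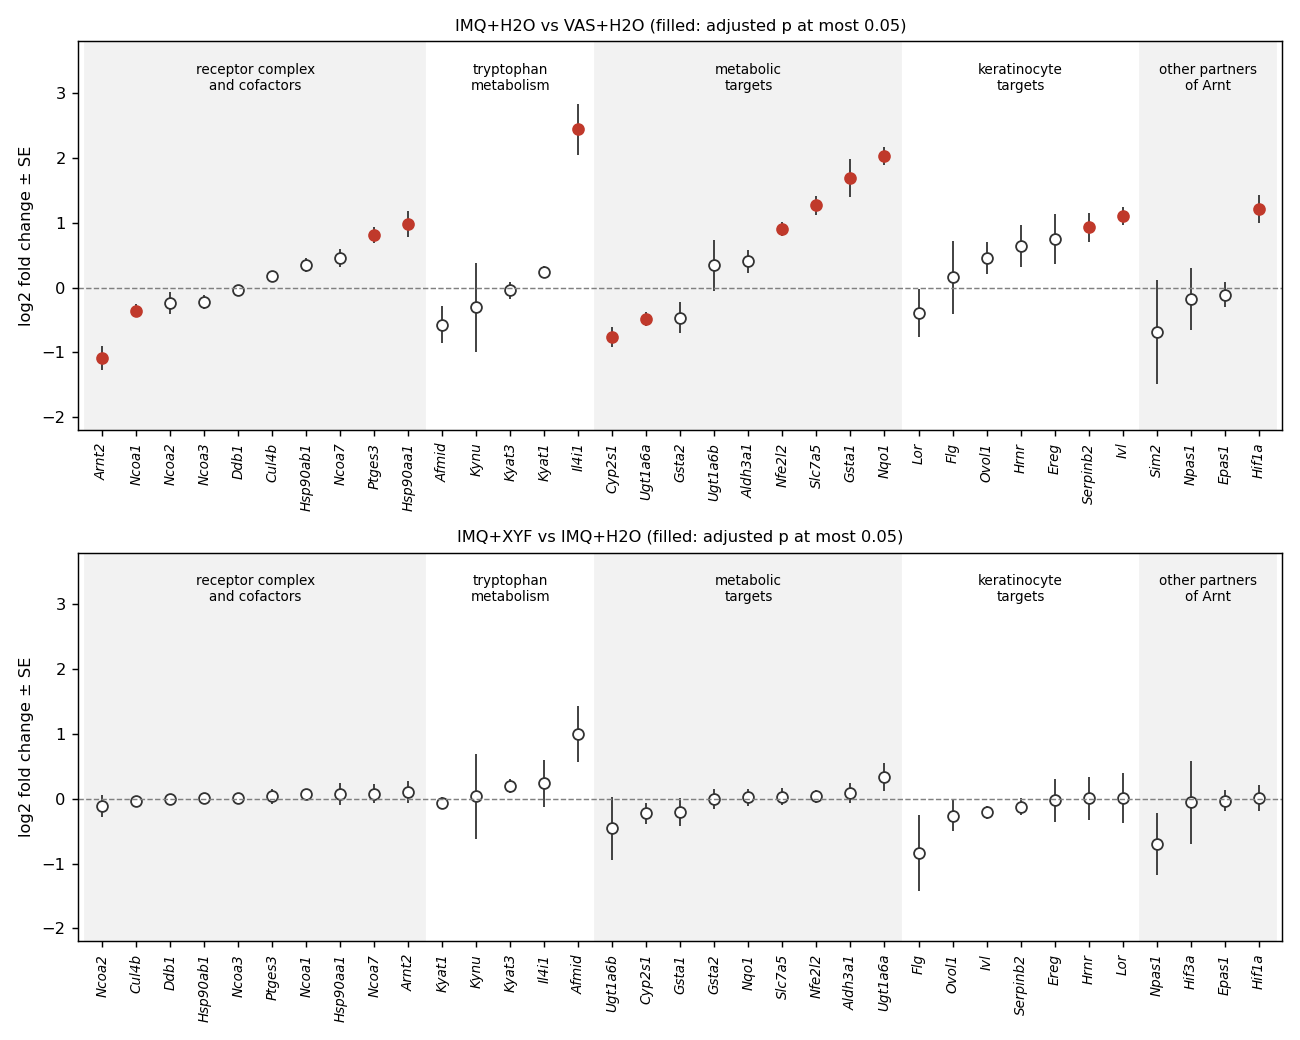
Log2 fold change with its SE (vertical axis) of the tested genes of the 5 pathway lists, ordered by value within each list, for IMQ+H2O against VAS+H2O (top) and IMQ+XYF against IMQ+H2O (bottom). Filled points passed an adjusted p of 0.05, and Il24 is left out because it had 0 counts in VAS+H2O. Nqo1 (2.03) and Il4i1 (2.44) are the highest points of the top panel, Arnt2 (-1.09) is the lowest, and no point is filled in the bottom panel.

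The genes whose log2 CPM ran most like each of the 6 over the 9 libraries were taken from 11351 genes with a mean of at least 5 CPM. The libraries share groups, so this is a description without a test. Dzip1 (r = 0.993), Mtmr11 (0.984) and Ivns1abp (0.983) were most like Ahr, and 459 genes had an r over 0.9 with it. Arhgap25 (0.998), Dgka (0.971) and Kcnj2 (0.963) were most like Arnt, with 111 such genes. Atf4 (0.974), Sde2 (0.970) and Gm12715 (0.968) were most like Tiparp, with 37. The genes closest to Cyp1a1 were Btbd1 (0.965), Rilpl1 (0.961) and Slc23a2 (0.936), and those closest to Cyp1b1 were Ttl (0.949), Krt79 (0.925) and Cast (0.911), with 4 genes over 0.9 for either. Ahrr had 0 genes over 0.9, and Tcf20 (0.890), Synj2 (0.888) and Zfp263 (0.883) came nearest.

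In the annotation, 127 bases of Ahr exons overlap the antisense Gm48236 and 223 bases of Tiparp exons the antisense 4931440P22Rik, and the strand setting of the counting is not given in the sources used here, so reads of these stretches may belong to either gene. Arnt holds Gm42672 within an intron, and Ahrr, Cyp1a1 and Cyp1b1 overlap no other gene.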

How the data were processed

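RNA of ear epidermal sheets was analysed in 9 libraries, grouped by their labels. Per the methods, TruSeq libraries were sequenced, reads were aligned by STAR to GRCm38 and Ensembl gene models, transcripts were assembled with StringTie and differential expression was tested with DESeq2. The submitters' processing notes name STAR 2.5, DESeq 1.22.1, Cuffnorm and FastQC. The counting tool and its strand setting are not given in the sources used here. The authors deposited whole-number counts per gene without normalization, which were treated as raw counts. Total counts were 30298275 to 64771160 per library, and 21327 of 52550 genes had none. No pair of libraries of the same group agreed within sampling noise.

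For each comparison the 6 libraries concerned were fitted alone with edgeR 4.0.16 in R 4.3.3 (filterByExpr, TMM, glmQLFit and glmQLFTest), with p-values adjusted by Benjamini and Hochberg over all genes tested. A gene passed at an adjusted p of at most 0.05. CPM used TMM factors over the 18492 genes kept in all 9 libraries, and log2 CPM a prior count of 2. SEs and 95% intervals were derived from the test statistic. The floor of detection was set at 3 counts and covers counting error only. Exon lengths and positions are from GENCODE M21 (GRCm38). The fits were tested on simulated data with 200 changed genes. True log2 fold changes of 1 were recovered for 37.5% in IMQ+H2O against VAS+H2O and 45% in IMQ+XYF against IMQ+H2O. In IMQ+XYF against VAS+H2O it was 41%. For true log2 fold changes of 2 the shares were 70.5%, 77.5% and 81.5% in the same order. With no true change, 0 genes were called. A gene that did not pass may therefore still differ. The 6 genes, the pathway lists and the cell type markers were chosen with earlier results of these data known. Genes of the lists are named where they passed in a comparison or stood at an end of their list, and for each of the 6 genes the 3 most like it are named. Aldh3a1, Kyat1, Kyat3, Ereg and Ovol1 were named after their values were seen.

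The alternatives tried were DESeq2 1.42.0, RLE size factors, dermal fibroblast markers as a covariate, a replicate block, 1 fit of all 9 libraries, a minimum of 10 counts per library, no filter, and omission of single libraries. For the pathway lists, DESeq2 and leaving out VAS+H2O library 2 or IMQ+H2O library 3 were added after seeing the data. The dermal libraries were not analysed here, and 1 gene of the receptor complex list is not reported here.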

Additional observations from a re-analysis of the deposited data

How the results depend on the processing

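For IMQ+H2O against VAS+H2O, 1 of the 6 genes passed in every fit but that of all 9 libraries together, with 2 (Ahr and Arnt, Arnt at edgeR adjusted p = 0.0384), and that with the dermal fibroblast covariate, with 0 of the 6 and 117 of all genes. Leaving out 1 library gave 1 to 1 of the 6 and 1446 to 3077 of all genes, the fewest without VAS+H2O library 2. The pathway genes that passed fell to 9 without VAS+H2O library 2 and were 14 without IMQ+H2O library 3. For IMQ+XYF against IMQ+H2O, 0 of the 6 passed in every fit run, while the 5 calls over all genes became 165 with DESeq2, 1 with all 9 libraries in 1 fit, 0 with the replicate block, 0 with the covariate and 0 to 5 without 1 library. For IMQ+XYF against VAS+H2O, 1 of the 6 passed without the low-count filter, 1 with the replicate block, and 1 to 3 without 1 library, against 2, with 3221 to 4544 of all genes. Arnt was the gene lost (edgeR adjusted p = 0.0641 without the filter and 0.0603 with the replicate block), and Ahr passed in all of these. Same-numbered libraries did not deviate together (r from -0.133 to 0.105), so the replicate block rests on a shared number alone. It changed no other call among the 6 genes.

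Without 1 library, values near 0 changed sign. For IMQ+H2O against VAS+H2O, the log2 fold change ranged from -0.53 to 0.020 for Ahrr and from -0.17 to 0.19 for Cyp1a1. For IMQ+XYF against IMQ+H2O it ranged from -0.30 to 0.25 for Ahrr, from -0.19 to 0.062 for Cyp1a1 and from -0.19 to 0.058 for Tiparp. For IMQ+XYF against VAS+H2O, Cyp1a1 ranged from -0.22 to 0.16. Ahr ranged from -0.73 to -0.60 in IMQ+H2O and from -0.63 to -0.51 in IMQ+XYF against VAS+H2O and passed in all 12 of these fits. The cause of these shifts was not tested. Ahrr rests on 41 to 139 counts per library.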
